A study of Mus musculus with 8 samples.

Results

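The 9 genes described here make or control the machinery that displays peptides on major histocompatibility complex (MHC) class II molecules. They are H2-Aa, H2-Ab1, H2-Eb1, Cd74, H2-DMa, H2-DMb1, H2-DMb2, H2-Oa and Ciita. They were chosen by function, as 9 of the 22075 genes in the deposited table, and all 9 passed the filter on low values (at least 1 FPKM in at least 2 libraries; FPKM is fragments per kilobase of gene, scaled to library depth). Ciita stayed under 1.2 FPKM in every library and was the lowest of them outside WT control, where H2-DMb2 was listed at 0. RNA came from cultured lung group 2 innate lymphoid cells (ILC2s), tissue-resident lymphocytes without antigen receptors, of C57BL/6 mice given papain for a short time. All cells carried floxed Stat3 alleles. WT cells were Stat3fl/fl and had no Cre, and STAT3-KO cells were VavicreStat3fl/fl, in which a Cre made throughout the blood lineage removes Stat3, so that the loss of STAT3 and the presence of Vav-iCre cannot be told apart. Both genotypes were first grown in IL-2 (10 ng/ml, about 5 days). Those of the IL-33 groups then received 10 ng/ml IL-33 for 2 days, and the control medium over those days is not described. Each of the 4 groups had 2 libraries. The labels give no ages, and neither mice nor cultures are named for the replicates, so that p-values measure only the spread between these libraries.

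Libraries held 15843685 to 19905817 reads, at which 3 reads in a gene of 1 kb equal 0.151 to 0.189 FPKM. Stat3 itself, listed over all its exons, lay between 41.7 and 55.3 FPKM in the 4 WT libraries. It lay between 15.3 and 16.0 FPKM in STAT3-KO control and between 8.03 and 9.69 FPKM in STAT3-KO with IL-33. Of 14 ILC2 markers, all were at 1 FPKM or more in 6 libraries and 12 were in both STAT3-KO libraries with IL-33, where Il17rb and Hpgds were below 1 FPKM. Between genotypes with IL-33 they went the other way from class II, with 11 of the 14 lower and 0 higher in STAT3-KO (limma). The same counts held at an unadjusted p under 0.05. Of all genes, 16.4% were lower and 16.3% higher there, and the median log2 difference of the 14 was -1.29. With IL-33 their sum was 2584 to 2803 FPKM in STAT3-KO and 8366 to 9161 in WT. Il5 and Il13 made up most of that WT sum, averaging 3500 and 2402 FPKM, against 921 and 672 in STAT3-KO with IL-33. In control the sum was 2598 to 2760 FPKM in WT and 2644 to 2687 in STAT3-KO. The part of these markers in the class II results was not tested.

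MHC class II molecules are pairs of an α and a β chain that carry peptides from endosomes to the cell surface, where CD4 T cells read them. The invariant chain, made by Cd74, fills the groove of a new pair and guides it to the endosome. There H2-DM, a class II-like pair that is not displayed, exchanges the last piece of the invariant chain for a peptide, and H2-DO restrains H2-DM. Transcription of this gene set is known to depend on the coactivator CIITA, which has no DNA binding of its own and docks on a complex of RFX, CREB and NF-Y proteins at a short conserved promoter module, the X and Y boxes. B cells and dendritic cells have the highest class II levels, and ILC2s are among the lymphocytes that can display class II.

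Promoter windows are shown because these boxes are the known shared handle on the gene set. RefSeq promoter entries (GRCm38.p6) matched 6 of the 9 genes. The 150 bases before each start were searched on both strands for the Y box core TGATTGG. It was found before the RefSeq start of 5 genes and in 5.714% of all 32851 promoter entries. The 13 bases upstream of the Y box that H2-Eb1, H2-DMb1 and H2-DMb2 share best, AACNGATGATGCT, were taken as the letters at their X box, so that the matches of these 3 genes follow from the choice. Over all entries, 4 held these letters (0.012%), and 3 of them, those of the 3 genes, held the Y box core as well (0.009%). The 2 motifs do not overlap each other. Each line gives 54 bases, 5′ to 3′ along the gene's strand, in lower case with the matched motifs in capitals:
H2-Aa, chr17:34287860-34287913, minus strand: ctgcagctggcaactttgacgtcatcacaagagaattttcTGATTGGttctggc
H2-Eb1, chr17:34305766-34305819, plus strand: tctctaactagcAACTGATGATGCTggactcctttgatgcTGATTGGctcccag
H2-DMb2, chr17:34145117-34145170, plus strand: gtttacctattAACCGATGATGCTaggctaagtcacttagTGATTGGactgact
H2-Oa, chr17:34092294-34092347, plus strand: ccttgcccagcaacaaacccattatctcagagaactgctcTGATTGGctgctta

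In H2-Eb1 the X box letters ended 15 bases before the Y box core, and in H2-DMb2 and H2-DMb1 the gap was 16 bases. The Y box core began 50 bases before the start in H2-Aa, 61 in H2-Eb1, 63 in H2-DMb1, 92 in H2-DMb2 and 45 in H2-Oa. These RefSeq starts are not all the gene starts of the deposited table given further on. The H2-DMb2 window lies inside the gene as listed there, outside its GENCODE M21 exons, and the H2-Oa window reaches 8 bases into the gene. For H2-DMb1 all 54 bases lie in a GENCODE exon of the gene, and that window is not shown. A match is a description of letters and not evidence of binding. The windows of H2-Aa and H2-Oa hold no match to the X box letters as written, and the entries for H2-DMa hold neither motif in the bases searched.

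The classical chain genes were low in control cells and high in STAT3-KO cells with IL-33. H2-Aa encodes the α chain of the I-A molecule and lies on chromosome 17 at 34282744-34287827 (GRCm38, minus strand). Its level was 10.3 and 11.6 FPKM in WT control, 15.6 and 13.2 in STAT3-KO control, 25.7 and 27.0 in WT with IL-33, and 141 and 108 in STAT3-KO with IL-33. The 4 groups did not overlap. IL-33 raised H2-Aa 2.41-fold in WT (difference of log2(FPKM + 1) 1.20 ± 0.16 (SE), adjusted p = 0.0006783, limma) and 8.63-fold in STAT3-KO (3.02, adjusted p = 3.472e-06). As these are bulk RNA levels, more cells with class II RNA and more class II RNA per cell cannot be told apart, here or for the genes that follow.

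H2-Ab1 encodes the β chain that pairs with H2-Aa (chromosome 17, 34263209-34269418, plus strand). It measured 15.2 and 13.5 FPKM in WT control, 18.6 and 21.97 in STAT3-KO control, 37.4 and 45.4 in WT with IL-33, and 89.1 and 92.3 in STAT3-KO with IL-33. Again the groups were separate, in the same order as for H2-Aa. IL-33 raised it 2.89-fold in WT (log2 difference 1.46 ± 0.14, adjusted p = 0.0001283) and 4.47-fold in STAT3-KO (2.11, adjusted p = 1.117e-05).

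H2-Eb1, the β chain of the I-E molecule (chromosome 17, 34305877-34316199, plus strand), stood apart from the I-A chains already in control cells. Its level was 12.5 and 16.3 FPKM in WT control, 43.2 and 34.1 in STAT3-KO control, 39.0 and 40.1 in WT with IL-33, and 308 and 272 in STAT3-KO with IL-33. The STAT3-KO control libraries lay on both sides of the WT libraries with IL-33, and both STAT3-KO libraries with IL-33 lay far above all others. In control, STAT3-KO exceeded WT by 1.36 ± 0.16 on the log2 scale (adjusted p = 0.01327). Among IL-33 libraries the excess was 2.84 (adjusted p = 1.764e-05), a 7.34-fold ratio of means. IL-33 itself raised H2-Eb1 2.75-fold in WT (1.41, adjusted p = 0.0003071) and 7.51-fold in STAT3-KO (2.88, adjusted p = 4.403e-06). The control call was lost in 6 of 18 alternatives (adjusted p 0.00238 to 0.282), which are the fit of the 2 groups alone and those without WT control replicate 1, either STAT3-KO control or either WT IL-33 library. H2-Ea, the α partner of H2-Eb1, was not analysed here, and H2-Eb1 RNA is not read as a sign of an I-E molecule.

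**Figure D1:**
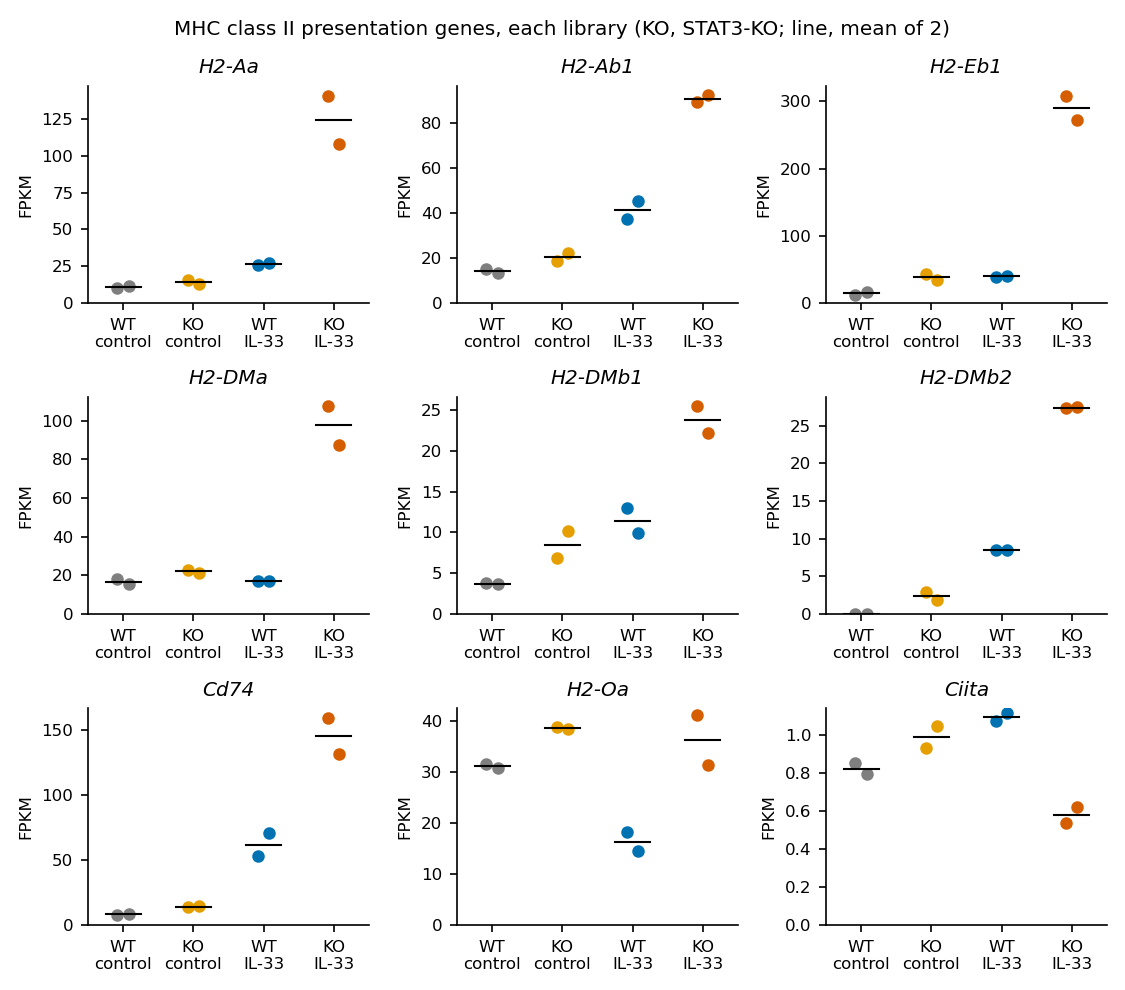
Level in FPKM of each of the 9 genes (1 panel per gene, y axes start at 0 and differ between panels) in the 8 libraries, with points for libraries and lines for the mean of 2. In 7 panels STAT3-KO with IL-33 is the highest group, and H2-Oa and Ciita differ from that order.

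Cd74, the invariant chain gene on chromosome 18, had the largest IL-33 ratios of means among the genes detected in WT control. It measured 7.82 and 8.64 FPKM in WT control, 13.8 and 14.5 in STAT3-KO control, 52.9 and 70.5 in WT with IL-33, and 159 and 131 in STAT3-KO with IL-33. The 4 groups did not overlap. IL-33 raised it 7.5-fold in WT (log2 difference 2.75 ± 0.16, adjusted p = 1.084e-05) and 10.2-fold in STAT3-KO (3.26, adjusted p = 2.684e-06). Within the IL-33 groups STAT3-KO was 2.35-fold above WT (1.23, adjusted p = 0.0008611), while the responses of the genotypes differed by 0.51 ± 0.23, which did not pass (adjusted p = 0.1616).

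The H2-DM genes, whose products form the peptide exchange factor, did not move as 1 unit. H2-DMa, its α chain (chromosome 17, 34135182-34139101, plus strand), was 17.9 and 15.4 FPKM in WT control, 22.8 and 21.3 in STAT3-KO control, 17.2 and 17.3 in WT with IL-33, and 108 and 87.5 in STAT3-KO with IL-33. The WT groups overlapped, and the STAT3-KO libraries with IL-33 were the only ones above 23 FPKM. In WT the IL-33 difference was 0.05 ± 0.14 (95% interval -0.26 to 0.36, adjusted p = 0.7887), against 2.09 in STAT3-KO (adjusted p = 1.102e-05), and the 2 responses differed by 2.04 ± 0.19 (adjusted p = 0.000778). The gene shares 360 exon bases with Brd2 on the opposite strand in GENCODE M21, and the strand setting of the counting is not given in the sources used here.

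H2-DMb1 and H2-DMb2 encode alternative β chains of H2-DM and lie side by side on chromosome 17 (34153072-34160230 and 34143307-34151553, both plus strand). Of all 50-base stretches of H2-DMb1 exons, 22.65% also occur in H2-DMb2, so that their reads may be split and each level is uncertain. H2-DMb1 measured 3.81 and 3.66 FPKM in WT control, 6.89 and 10.1 in STAT3-KO control, 12.99 and 9.89 in WT with IL-33, and 25.5 and 22.1 in STAT3-KO with IL-33. STAT3-KO control and WT with IL-33 overlapped, and the other groups were separate. IL-33 raised H2-DMb1 3.06-fold in WT (1.38 ± 0.20, adjusted p = 0.001282) and 2.80-fold in STAT3-KO (1.40, adjusted p = 0.0007231), and the difference of responses was 0.02 ± 0.29 (adjusted p = 0.9706).

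H2-DMb2 was listed at 0 in both WT control libraries. It was at 2.96 and 1.82 FPKM in STAT3-KO control, at 8.49 and 8.51 in WT with IL-33, and at 27.3 and 27.4 in STAT3-KO with IL-33. No 2 groups overlapped. On the log2(FPKM + 1) scale IL-33 raised it by 3.25 ± 0.19 in WT (adjusted p = 1.222e-05) and by 3.08 in STAT3-KO (adjusted p = 8.904e-06), where the ratio of means was 11.4. STAT3-KO control exceeded WT control by 1.74 (adjusted p = 0.01157), a call lost in the same 6 alternatives as for H2-Eb1 (adjusted p 0.00239 to 0.26 over all 18). No fold is given against the group listed at 0, and the difference of responses, -0.16 ± 0.27 (adjusted p = 0.7283), moves with the pseudocount.

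Summed over both β chains, H2-DMb lay at 3.66 to 3.81 FPKM in WT control and 9.84 to 11.9 in STAT3-KO control. With IL-33 the sum was 18.4 to 21.5 FPKM in WT and 49.5 to 52.7 in STAT3-KO. The ratio of H2-DMa to this sum fell from 4.71 and 4.22 in WT control to 0.802 and 0.942 in WT with IL-33. Whether the α or the β chain genes were higher depends on the gene lengths used for FPKM, so only the change of the ratio is described. In STAT3-KO it stayed between 1.77 and 2.31 in the 4 libraries.

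H2-Oa, the α chain of H2-DO (chromosome 17, 34092340-34095234, plus strand), ran against the other genes in WT cells. Its level was 31.6 and 30.8 FPKM in WT control, 38.7 and 38.4 in STAT3-KO control, 18.2 and 14.4 in WT with IL-33, and 41.2 and 31.4 in STAT3-KO with IL-33. The WT libraries with IL-33 were the lowest of all, and STAT3-KO with IL-33 overlapped both control groups. IL-33 lowered it in WT to 0.522 of the control mean (log2 difference -0.91 ± 0.16, adjusted p = 0.003073), whereas in STAT3-KO the difference was -0.10 (95% interval -0.46 to 0.26, adjusted p = 0.6304). The responses differed by 0.81 ± 0.22 (adjusted p = 0.04498), close to the threshold of 0.05 and lost in 11 of 17 alternatives (adjusted p 0.0233 to 0.144), which include leaving out any library but STAT3-KO IL-33 replicate 2. H2-Oa shares 321 exon bases with BC051537. H2-Ob, the β chain of H2-DO, averaged between 0.178 and 0.701 FPKM per group and was not tested.

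The ratio of H2-DMa to H2-Oa, the exchange factor's α chain over that of its restrainer, was 0.568 and 0.501 in WT control and 0.588 and 0.556 in STAT3-KO control. It was 0.949 and 1.20 in WT with IL-33, where H2-Oa had fallen. In STAT3-KO with IL-33 it was 2.62 and 2.79, where H2-DMa had risen.

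Ciita (chromosome 16, 10488178-10527564, plus strand) was the one gene for which STAT3-KO cells with IL-33 were lowest. It measured 0.851 and 0.793 FPKM in WT control, 0.928 and 1.04 in STAT3-KO control, 1.07 and 1.11 in WT with IL-33, and 0.537 and 0.621 in STAT3-KO with IL-33. No 2 groups overlapped, but the whole range was narrow and 0 of the 5 comparisons passed in limma, nor did any reach an unadjusted p of 0.05. Without the trend in the prior variance, 1 of them (STAT3-KO against WT with IL-33) passed. The IL-33 difference was 0.20 ± 0.20 in WT (95% interval -0.25 to 0.65, adjusted p = 0.455) and -0.33 in STAT3-KO (-0.78 to 0.12, adjusted p = 0.1903). STAT3-KO with IL-33 stood at 0.531 of the WT mean with IL-33 (-0.41, adjusted p = 0.1517). On the log2(FPKM + 1) scale a change in a gene this low is understated, and Ciita shares 329 exon bases with Dexi. Its level thus did not follow those of the chain genes across the groups.

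The order of the genes by length-corrected level changed with the group. In WT control H2-Oa led with 31.2 ± 0.55 FPKM (SD, n = 2), above H2-DMa in both libraries, and H2-DMa, H2-Eb1 and H2-Ab1 could not be ordered beyond their spread. In STAT3-KO control H2-Eb1 and H2-Oa led at 38.6 ± 6.5 and 38.5 ± 0.22 FPKM and were not separable. In WT with IL-33 Cd74 led at 61.7 ± 12 FPKM, followed by H2-Ab1 and H2-Eb1, which were not separable from each other.

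In STAT3-KO with IL-33 H2-Eb1 was highest at 290.2 ± 25 FPKM. Cd74 and H2-Aa came next and were not separable from each other, and neither were H2-DMa and H2-Ab1 below them. H2-Eb1 made up 12.5% and 16.2% of the summed FPKM of the 9 genes in WT control, and 34.3% and 35.2% in STAT3-KO with IL-33. The ratio of H2-Eb1 to H2-Ab1 was 0.826 and 1.21 in WT control and 1.04 and 0.883 in WT with IL-33. It was 2.32 and 1.55 in STAT3-KO control and 3.46 and 2.95 in STAT3-KO with IL-33, so the 4 STAT3-KO libraries lay above the 4 WT libraries. The sum of the 9 genes was 99.97 and 100.6 FPKM in WT control, 163.5 and 156.5 in STAT3-KO control, 212.9 and 234.2 in WT with IL-33, and 899.2 and 773.0 in STAT3-KO with IL-33.

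Counted over the set, IL-33 in WT raised 6 of the 9 genes and lowered H2-Oa. Of all 11877 genes tested, 36.1% were called in that comparison, 14.5% higher and 21.6% lower. In STAT3-KO IL-33 raised 7 genes and lowered 0, against 20.4% of all genes called higher and 30.6% called lower (51% in either direction). Groups did not overlap for 7 genes higher and 1 lower in WT (28.1% and 42.3% of all genes), and likewise for 7 higher and 1 lower in STAT3-KO (30.7% and 46.3%). The median log2 difference of the 9 genes was 1.38 in WT and 2.11 in STAT3-KO, beside -0.14 and -0.18 over all genes tested. The median of all genes lay below 0 on the deposited scale. Rescaling by median of ratios brought it to -0.001 in WT and -0.009 in STAT3-KO and changed the split of all calls to 2299 higher and 1863 lower in WT and 3140 higher and 2761 lower in STAT3-KO, from 1724 and 2561 and from 2425 and 3638.

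Between genotypes, 2 of the 9 genes (H2-Eb1 and H2-DMb2) were higher in STAT3-KO in control and 0 were lower, against 0.463% of all genes called there in either direction, 0.253% called higher and 0.21% called lower. All 9 were higher in STAT3-KO control without overlap, as were 21.1% of all genes, while 16.8% of all genes were lower without overlap. The other 7 gave positive log2 differences from 0.12 for Ciita to 0.98 for H2-DMb1 that did not pass. With IL-33, 8 genes were higher in STAT3-KO and 0 lower, where 16.3% of all genes were called higher and 16.4% lower (32.6% in all). Groups did not overlap for 8 genes higher and 1, Ciita, lower (34.3% and 32.6% of all genes). At an unadjusted p under 0.05, 0 of the 9 were lower in STAT3-KO in either condition. The ratios of means with IL-33 were 7.34 for H2-Eb1, 5.65 for H2-DMa, 4.73 for H2-Aa, 3.22 for H2-DMb2, 2.35 for Cd74, 2.23 for H2-Oa, 2.19 for H2-Ab1 and 2.08 for H2-DMb1. The comparisons share groups of libraries, so they are not independent of each other.

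The IL-33 response differed between genotypes for 4 of the 9 genes, all in the direction of STAT3-KO, where 15.1% of all genes were called, 6.72% higher and 8.43% lower. The log2 differences of responses were 2.04 for H2-DMa, 1.82 for H2-Aa (adjusted p = 0.00207), 1.48 for H2-Eb1 (adjusted p = 0.004839) and 0.81 for H2-Oa. H2-Ab1 missed the threshold at 0.65 ± 0.20 (adjusted p = 0.05773) and passed with genes of a mean of at least 5 FPKM alone (adjusted p = 0.0356). For H2-Aa, H2-Eb1 and H2-DMa the call held in every alternative analysis run.

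**Figure D2:**
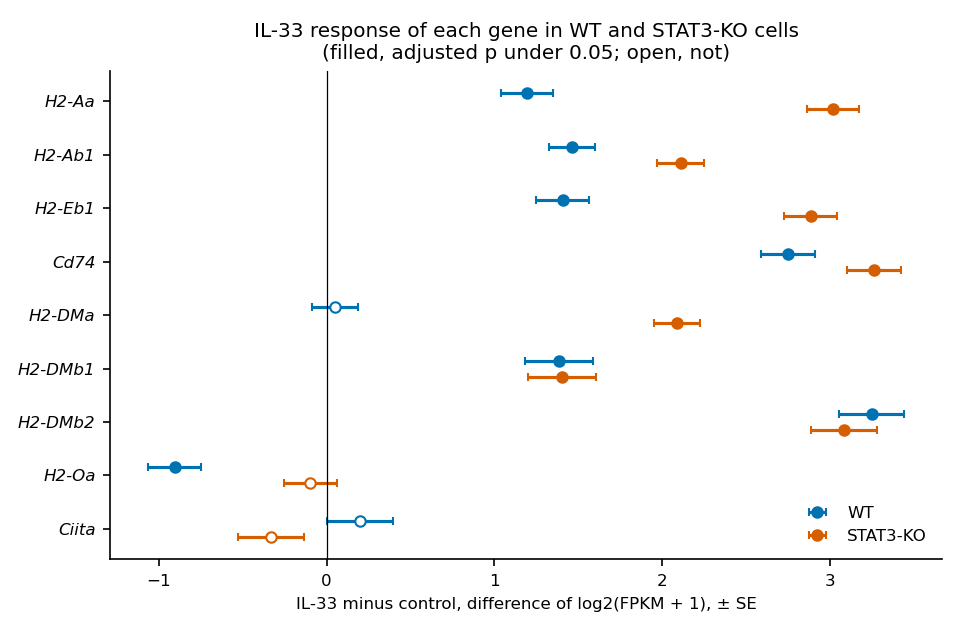
IL-33 minus control difference of log2(FPKM + 1) with its standard error (x axis) for each gene (y axis) in WT and in STAT3-KO cells, filled where the adjusted p is under 0.05. H2-Aa, H2-Eb1, H2-DMa and H2-Oa are the genes whose 2 responses differ by the test, by 0.81 to 2.04.

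Across the 8 libraries, the 21 pairs among the 7 genes other than H2-Oa and Ciita had Pearson correlations of log2(FPKM + 1) from 0.746 to 0.987. H2-Oa gave -0.233 to 0.441 with those 7, and Ciita gave -0.846 to -0.383. The libraries fall into 4 groups that share their treatment, so these are descriptions of the group pattern. Among 5952 genes with a mean of at least 5 FPKM, those closest to Cd74 were Mycl (0.993), Etv5 (0.992), Pmm1 (0.992), Nme4 (0.991) and Aga (0.990). Those closest to Ciita were Padi2 (0.977), Sec16a (0.962), Gzmb (0.957), Ass1 (0.956) and Gimap8 (0.956).

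Among regulators, the genes known to bind with CIITA or to induce it, listed together with the repressor Prdm1, changed in both directions. Of 17 tested, IL-33 raised 3, Prdm1 among them, and lowered 7 in WT, where 14.5% of all genes were called higher and 21.6% lower. In STAT3-KO it raised 1 and lowered 6, beside 20.4% and 30.6% of all genes, so that the count lowered was near the background there. Their median log2 differences were -0.49 and -0.27, against -0.14 and -0.18 over all genes. Ifngr1, a chain of the receptor for interferon-γ, the textbook inducer of class II, was 465 and 462 FPKM in WT control and 196 and 191 in WT with IL-33. In STAT3-KO it went from 498 and 491 to 71.7 and 82.7 (log2 difference -2.67, adjusted p = 6.223e-07).

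Jak1, a kinase of the interferon-γ receptor, was 113 and 120 FPKM in STAT3-KO control and 30.6 and 36.2 in STAT3-KO with IL-33 (-1.77, adjusted p = 4.196e-05). Crebbp, a histone acetyltransferase that CIITA recruits, differed by -1.46 on the log2 scale in WT and by -1.56 in STAT3-KO (adjusted p = 0.0002211 and 9.477e-05).

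Irf4, a lymphocyte transcription factor, was 13.7 and 13.1 FPKM in STAT3-KO control and 39.4 and 62.4 in STAT3-KO with IL-33 (1.81, adjusted p = 0.0002352), the only gene of this list to rise there. Prdm1, a repressor known to silence Ciita in plasma cells, was 16.4 and 14.1 FPKM in WT with IL-33 and 2.69 and 2.44 in STAT3-KO with IL-33 (-2.18, adjusted p = 0.00126). Between genotypes in control, 0 of the 17 passed in limma and 4 had an unadjusted p under 0.05, beside 0.463% of all genes called. With IL-33, 3 were higher and 3 lower in STAT3-KO, near the 16.3% and 16.4% of all genes.

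Genes of endosomal antigen processing, which cut antigen and the invariant chain, were mixed. Of 14 tested, IL-33 raised 7 and lowered 3 in WT, beside 14.5% and 21.6% of all genes. In STAT3-KO it raised 4 and lowered 3, near the shares of all genes (20.4% and 30.6%). Ctsh, an aminopeptidase of endosomes, was at 0.305 and 0.253 FPKM in WT control and 6.43 and 6.31 in WT with IL-33 (log2 difference 2.53, adjusted p = 3.218e-05). Lgmn, the asparaginyl endopeptidase, rose by 1.44 in WT (adjusted p = 6.593e-05) and by 0.76 in STAT3-KO (adjusted p = 0.00117). Between genotypes with IL-33, 3 of the 14 were higher and 3 lower in STAT3-KO, near the 16.3% and 16.4% of all genes. Ctsz, another cathepsin and 1 of those higher, was 115 and 100 FPKM in WT with IL-33 and 178 and 215 in STAT3-KO with IL-33 (0.86, adjusted p = 0.002111). Ifi30, a reductase that opens disulfide bonds of antigens, fell by 0.87 in WT on the log2 scale (adjusted p = 0.006058).

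Class I presentation, the parallel route for peptides made in the cytosol, changed in both directions too. Of 17 genes, IL-33 raised 2 and lowered 8 in WT (median log2 difference -0.34), beside 14.5% of all genes higher and 21.6% lower. In STAT3-KO it raised 5 and lowered 5 (median 0.05), near the 20.4% and 30.6% of all genes. The 2 that rose in WT were the chaperones Calr (1.09, adjusted p = 0.0001158) and Canx (1.11, adjusted p = 0.000144). H2-K1, a class I heavy chain, averaged 2825 FPKM in WT control and 1604 in WT with IL-33 (-0.81, adjusted p = 0.0001826). Tapbpl, a peptide editor of class I, was 40.4 and 38.2 FPKM in WT control and 9.23 and 6.66 in WT with IL-33 (-2.19, adjusted p = 2.719e-05). For 8 of the 17 the response was more positive in STAT3-KO (6.72% of all genes), with the smallest p for Tapbpl (1.59, adjusted p = 0.003224) and Tap1, a subunit of the peptide transporter (0.99, adjusted p = 0.003406), and for 0 it was more negative (1 at an unadjusted p under 0.05).

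**Figure D3:**
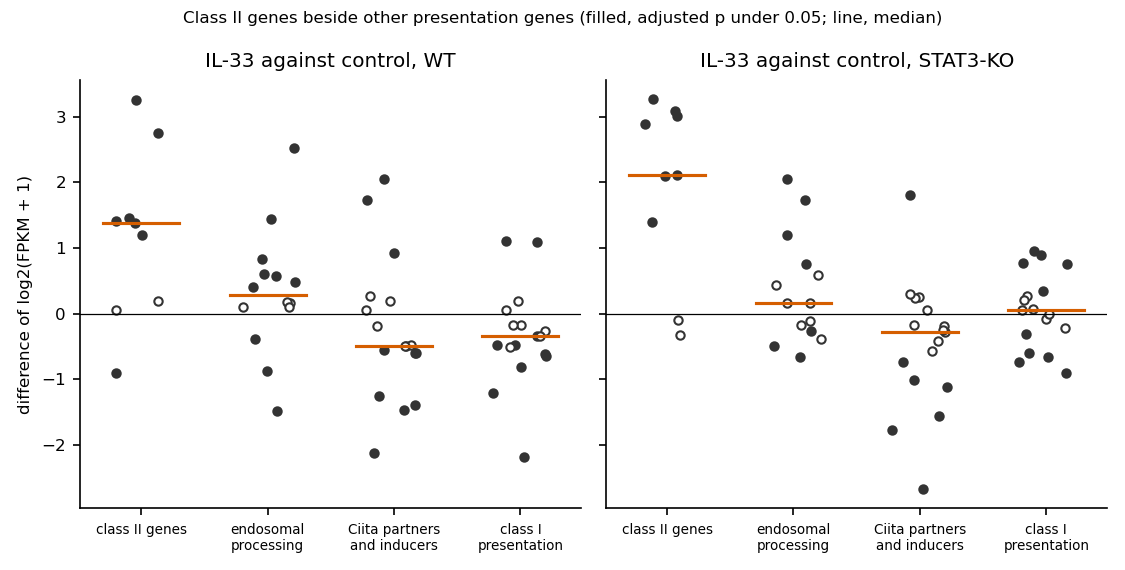
IL-33 minus control difference of log2(FPKM + 1) for the class II genes, endosomal processing genes, Ciita partners and inducers, and class I genes, in WT and STAT3-KO. The Ciita list includes the repressor Prdm1. Points are filled where the adjusted p is under 0.05, and a line marks the median of each list. The class II medians are 1.38 and 2.11, and the other medians lie between -0.49 and 0.29.

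Ligands that signal to T cells beside class II were tested for 7 genes, among them Cd274 and Pdcd1lg2, which are inhibitory. Cd274 averaged 15.2 FPKM in WT control and 9.27 in WT with IL-33, and Pdcd1lg2 averaged 9.06 and 16.3. IL-33 raised 4 and lowered 2 in WT (14.5% and 21.6% of all genes), and raised 5 and lowered 1 in STAT3-KO (20.4% and 30.6%). Tnfsf4, the OX40 ligand, was 51.9 and 50.1 FPKM in WT control, 110 and 114 in STAT3-KO control, 48.5 and 49.1 in WT with IL-33, and 748 and 837 in STAT3-KO with IL-33. STAT3-KO was above WT with no overlap in either condition, by 1.12 on the log2 scale in control cells (adjusted p = 0.00651) and by 3.99 after IL-33 (adjusted p = 4.432e-07).

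Cd70, the ligand of CD27, was under 0.2 FPKM in WT control, 2.47 and 2.44 in STAT3-KO control, 6.5 and 10.7 in WT with IL-33, and 143 and 98.2 in STAT3-KO with IL-33. Its order of groups matched that of H2-DMb2. Cd80, a ligand of CD28, was 10.1 and 9.57 FPKM in WT with IL-33 and 28.3 and 26.4 in STAT3-KO with IL-33 (1.39, adjusted p = 0.0002204). Icosl, the ligand of ICOS, went the other way and fell by 1.53 in WT with IL-33 on the log2 scale (adjusted p = 0.001282).

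Cd83, known to protect surface class II from the ubiquitin ligase MARCH1, was one of the 2 tested genes of class II turnover. It was 0.857 and 1.96 FPKM in WT control, 4.12 and 5.50 in STAT3-KO control, 0.332 and 0.525 in WT with IL-33, and 22.5 and 29.5 in STAT3-KO with IL-33. The genotypes did not overlap in either condition, and the IL-33 responses differed by 2.93 ± 0.37 on the log2 scale (adjusted p = 0.002564). The other, March8, fell by 0.97 in WT on the log2 scale (adjusted p = 0.03316).

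On chromosome 17 the stretch from H2-Oa to H2-Eb1 holds 16 genes of the table, 7 of the 9 genes described and 9 others, of which 5 were tested. The others include H2-Ob, also a class II gene, which did not pass the filter and lay at 0.462 and 0.624 FPKM in WT with IL-33 and 0.194 and 0.161 in STAT3-KO with IL-33. The 5 tested neighbours are Brd2, Psmb9, Tap1, Psmb8 and Tap2, a chromatin reader and 4 class I processing genes. IL-33 raised 0 of the 5 and lowered 3 in WT, beside 14.5% and 21.6% of all genes. In STAT3-KO it raised 1 (Tap1) and lowered 1 (Brd2), near the 20.4% and 30.6% of all genes. With IL-33, STAT3-KO exceeded WT for Tap1 (0.74 ± 0.10, adjusted p = 0.0008408) and Psmb9 (0.51 ± 0.14, adjusted p = 0.0227) and was lower for Brd2 (-0.53 ± 0.13, adjusted p = 0.0135). Of all genes, 16.3% were called higher and 16.4% lower in STAT3-KO with IL-33. The 7 tested class II genes of the stretch were higher in STAT3-KO there, each by 1.00 or more on the log2 scale. The IL-33 response itself was more positive in STAT3-KO for 3 of the 5 neighbours (Tap1, Psmb9 and Tap2). For 0 of them it was more negative, beside 6.72% and 8.43% of all genes. A more positive response in STAT3-KO was thus not confined to the class II genes of the stretch.

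**Figure D4:**
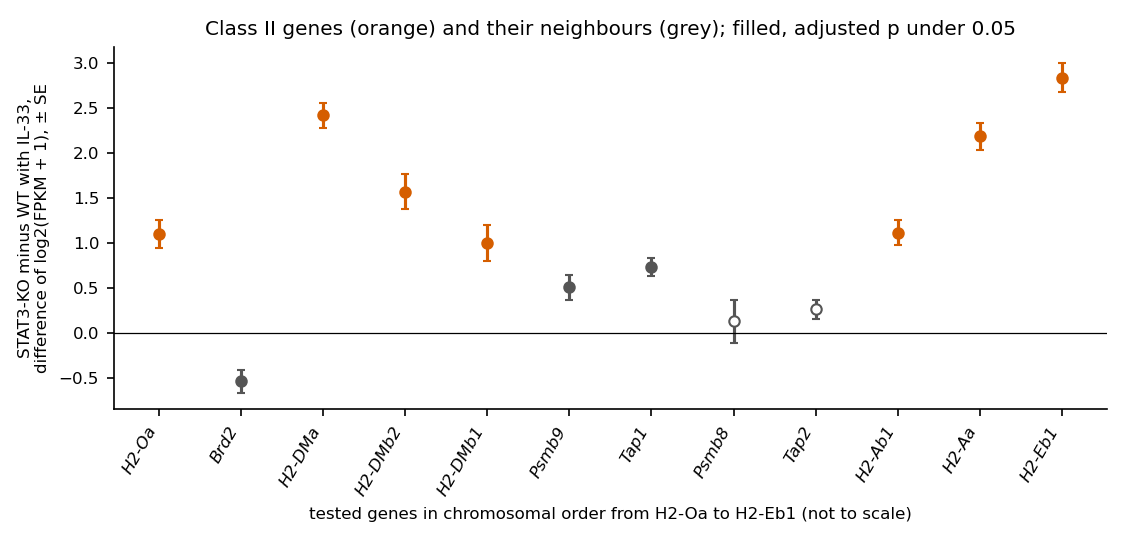
STAT3-KO minus WT difference of log2(FPKM + 1) with IL-33, with its standard error (y axis), for the 12 tested genes from H2-Oa to H2-Eb1 in chromosomal order, class II genes in orange and neighbours in grey, filled where the adjusted p is under 0.05. The class II genes lie between 1.00 and 2.84 and the neighbours between -0.53 and 0.74.

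Markers of other class II-bearing cells were read in the same libraries. The summed level of 10 dendritic cell markers, 8 of them in the table, was 16.9 to 20.7 FPKM in the control groups, 121 to 137 in WT with IL-33 and 338 to 339 in STAT3-KO with IL-33. Ccr7, a chemokine receptor that lymphocytes also make, accounted for most of it, with 16.2 and 17.5 FPKM in WT control and 318 and 320 in STAT3-KO with IL-33. Batf3 was 0.261 and 0.119 FPKM in WT control and 15.6 and 12.7 in STAT3-KO with IL-33. The defining dendritic cell genes Itgax and Flt3 stayed below 0.19 FPKM in every library, and Zbtb46 reached 1.02 FPKM in STAT3-KO with IL-33 from 0.21 or less in WT control. Xcr1, the third tested gene of the list, was at 2.21 to 6.80 FPKM in all libraries. It rose with IL-33 in WT (0.80, adjusted p = 0.01636), and in STAT3-KO its difference was 0.54 (adjusted p = 0.05461). Clec10a was at 0.973 and 0.349 FPKM in STAT3-KO with IL-33 and at 0 elsewhere, and Cd209a was at 0 in 7 libraries.

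The summed level of 10 B cell markers, 6 of them in the table, was 7.96 to 8.83 FPKM in WT control, 3.52 to 4.32 in STAT3-KO control, 13.2 to 13.9 in WT with IL-33 and 19.9 to 22.4 in STAT3-KO with IL-33. Cd79b made up most of the sum, with 7.5 and 6.75 FPKM in WT control and 21.7 and 19.1 in STAT3-KO with IL-33. Its partner Cd79a did not exceed 1.17 FPKM, and Ebf1 was at 0 in 7 libraries and at 0.0519 FPKM in the other. Macrophage and monocyte markers, 4 of 12 in the table, summed to 0.312 to 2.66 FPKM in the control groups and 3.23 to 6.78 with IL-33, where Cd68 made up most of it, and Lyz2 and Cd14 stayed below 0.9 FPKM. Spi1, the myeloid transcription factor that drives Ciita in such cells, was at 0 in 7 libraries and at 0.0373 FPKM in the other.

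Markers of epithelial cells, another class II-bearing lung cell, moved apart. Their sum, 4 of 9 in the table, was 5.27 to 10.6 FPKM in the control groups, 5.52 to 6.14 in WT with IL-33 and 1.72 to 1.93 in STAT3-KO with IL-33. Epcam carried that sum, with 5.42 and 7.79 FPKM in STAT3-KO control and 0.331 and 0.441 in STAT3-KO with IL-33 (-2.44, adjusted p = 0.0002637). Krt18 rose with IL-33 in both genotypes, by 0.94 in WT (adjusted p = 0.01966) and by 1.14 in STAT3-KO (adjusted p = 0.005884), to 1.23 to 1.49 FPKM. T cell markers summed to 72.7 to 88.4 FPKM in the control groups and 11.5 to 18.1 in STAT3-KO with IL-33, and ILC3 markers to 0.863 to 1.23 FPKM in the latter. Lat, a signalling adaptor, carried the T cell sum, with a mean of 62.7 FPKM in STAT3-KO control and 7.84 in STAT3-KO with IL-33. Cd3g averaged 8.76 and 5.61 FPKM in the same groups, and Cd3e and Cd3d stayed below 0.34 FPKM in every library. Trac, the gene of the antigen receptor α chain constant region, lay between 0.72 and 3.82 FPKM over all libraries.

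Ccr7 and Batf3 rose with IL-33 in both genotypes and were higher in STAT3-KO than in WT with IL-33, as most of the class II genes were. Cd79b did the same but averaged 3.06 FPKM in STAT3-KO control against 7.12 in WT control, where the class II genes were higher. Cd68 rose in WT (2.17, adjusted p = 0.008734), and its level was 5.61 and 2.77 FPKM in STAT3-KO with IL-33 against 5.67 in both WT libraries. The part of these 4 genes in the class II results was not tested.

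**Figure D5:**
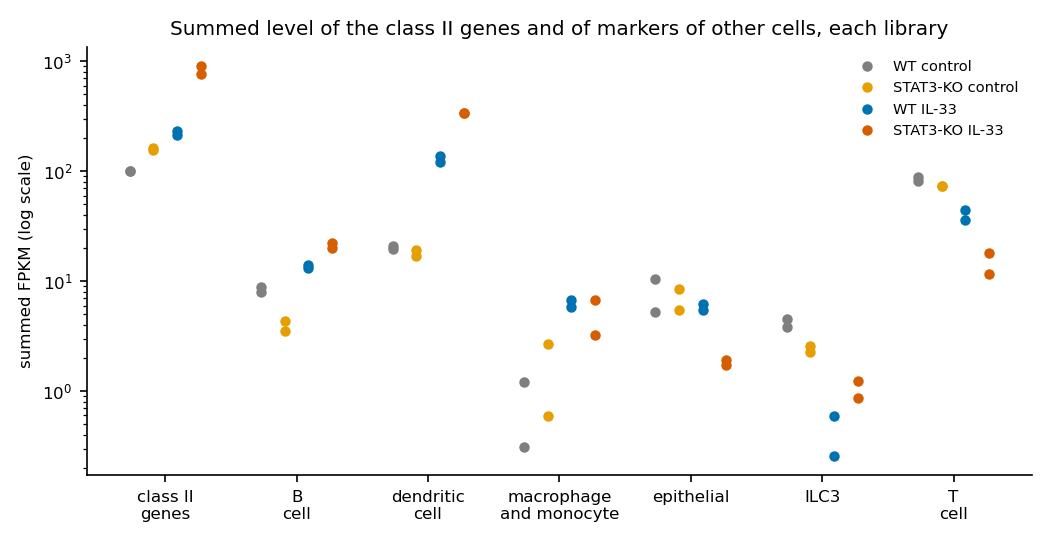
Summed FPKM (log scale) of the 9 class II genes and of 6 marker lists of other cells, each point a library, coloured by group. The dendritic cell sum (mostly Ccr7) and the B cell sum (mostly Cd79b) are highest in STAT3-KO with IL-33 and the epithelial (Epcam) and T cell (Lat) sums are lowest there, with STAT3-KO IL-33 values of 338 to 339, 19.9 to 22.4, 1.72 to 1.93 and 11.5 to 18.1 FPKM.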

How the data were processed

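RNA-seq covered 8 libraries of mouse lung ILC2 cultures, 2 per group, with the groups taken from the labels. The deposited table gives FPKM per gene and library, made by the authors with Bowtie2 and RSEM on GRCm38, per the submitters' processing notes; versions, annotation and strand setting are not given in the sources used here. Depth was recovered from the steps of the values with merged exon lengths of GENCODE M21, since 93.4% to 94.6% of low values lay within 0.02 of whole reads. That gives counting error only.

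Differences were fitted on log2(FPKM + 1) with limma 3.58.1 (R 4.3.3; 1 mean per group over 8 libraries, trended prior variance) for 11877 genes with at least 1 FPKM in at least 2 libraries. P-values are two-sided, adjusted by Benjamini-Hochberg over all genes of a comparison and called at 0.05; 2 libraries against 2 cannot go below 0.333 in an exact permutation test. The 5 comparisons, the 9 genes and the lists were chosen with earlier results of these data known, so list counts are descriptions. All 9 genes are given in every library; from other lists, up to 4 called genes of smallest p per comparison were named, or the most abundant where none was called, and markers that carry or define a sum were named after their values were seen. Not every gene this rule takes is reported here. For likeness, the 5 genes of highest correlation were named. The fit was run on simulated data, where only STAT3-KO with IL-33 held changed genes. That run does not measure the error rate on the real libraries. Replicate numbers did not pair the libraries. Alternatives were other pseudocounts, filters, scalings, a length correction, a replicate block, other variance settings and leaving out each library. Motif searches and figures used matplotlib 3.10.9, pandas 2.3.3 and numpy 2.4.6 under Python 3.11.15.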

Additional observations from a re-analysis of the deposited data

Results flagged for a closer look

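The IL-33 response differed between STAT3-KO and WT, by a test of the difference itself, for 4 of the 9 genes. H2-DMa differed by 2.04 on the log2 scale, with both WT libraries in the control range and both STAT3-KO libraries above it. H2-Aa differed by 1.82 and H2-Eb1 by 1.48, both genes rising in both genotypes. H2-Oa differed by 0.81, falling in WT, with a call that was lost in 11 of 17 alternatives.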

How the results depend on the processing

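Over 18 alternatives, 24 of the 28 called differences kept their call and 0 changed sign. Those lost were H2-Eb1 and H2-DMb2 between genotypes in control (6 of 18 each), H2-Oa in the difference of responses (11 of 17) and H2-DMb1 between genotypes with IL-33 (2 of 18: adjusted p = 0.0634 without WT IL-33 replicate 2 and 0.0507 without STAT3-KO IL-33 replicate 1, limma). The count higher in STAT3-KO control was 0 with only the 2 groups compared and 0 to 2 with 1 library left out, and 3 with a mean of at least 5 FPKM, where H2-DMb1 gained the call (adjusted p = 0.0488); it was 0 without WT control replicate 1, either STAT3-KO control or either WT IL-33 library. H2-DMb2 became the 1 gene with a lower response in STAT3-KO at a pseudocount of 0.1 (-2.93) and on the TPM scale (-1.48), and Ciita the 1 gene lower in STAT3-KO with IL-33 without the variance trend. Only uncalled differences changed sign. H2-Oa in STAT3-KO with IL-33 became 0.12 under median of ratios and lay between -0.287 and 0.093 with 1 library left out; Ciita there became 0.14 with the length trend removed. The H2-DMb1 difference of responses became -0.08 and -0.03 at pseudocounts of 0.1 and 0.5, -0.16 on the TPM scale, -0.13 with the length trend removed, and lay between -0.228 and 0.267 with 1 library left out. With 1 library left out, H2-DMa in WT lay between -0.051 and 0.155 and the H2-DMb2 difference of responses between -0.408 and 0.079. With the replicate block, counts of the 9 genes higher stayed at 6, 7, 2, 8 and 4 in the 5 comparisons; deviations of same-numbered libraries correlated at -0.062 to 0.045. Estimated reads were fewest for H2-DMb2 (0 in WT control, 51.1 and 86.8 in STAT3-KO control). The causes were not tested.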
